A study of Mus musculus with 12 samples.

Results

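ERG is a transcription factor of the ETS family, and its gene was listed at close to no counts in pre-B cells with an empty vector (EV) and at a high level in pre-B cells transformed by BCR-ABL1. Described here are 10 mouse genes of this family, Erg, Fli1, Ets1, Ets2, Elf1, Etv5, Etv6, Gabpa, Elk3 and Elf4, out of 51826 genes counted. They are 10 of 24 ETS factors listed for these lines, from which the PU.1 subfamily was left out, and all 10 passed the filter on low counts that 15038 genes passed. Erg was chosen by its levels in EV and BCR-ABL1 lines, so its values in that comparison are a description and carry no test. The other 9 were listed as members of the family with earlier results of these data known, so their calls in that comparison describe these lines and support nothing further.

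Bone marrow pre-B cells of 2 wild-type C57BL/6 mice, which the labels call Pro-/pre B cells, were cultured with interleukin 7 (IL7) for 7 days and transduced. From each mouse, 3 EV lines carried the vector pMIG, kept IL7 and were sorted for GFP, and 3 BCR-ABL1 lines carried pMIG-BCR-ABL and were deprived of IL7 for 1 week, starting 48 h after transduction. BCR-ABL1, the loss of IL7 and the way of selection therefore coincide in all lines and cannot be told apart. Selection was by GFP sorting in EV lines and by IL7 withdrawal in BCR-ABL1 lines. Lines are named by mouse and letter, such as EV line 2B, and the labels count each as a cell line of its own. The study's methods speak of triplicates from 3 independent experiments, without saying which line came from which. All lines go back to the cells of 2 mice, so p-values measure the spread between these lines.

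ETS factors share a DNA-binding domain that recognizes sites with the core GGAA, and most blood cells carry several of them at once. Erg and its closest relative Fli1 keep stem and progenitor cells, megakaryocytes and endothelium in place, Ets1 is the factor typical of lymphocytes, and Etv5 belongs to a small group whose genes are switched on by the RAS-ERK pathway. Altered forms of ERG and rearranged ETV6 are both known from acute lymphoblastic leukemia.

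Erg lies on the minus strand of chromosome 16 (GRCm38, 95359169 to 95586593), and RefSeq lists 3 starts for it. The 250 bases before each start are shown because these are the windows from which the silent gene would be transcribed, together with the window before one of the starts of Etv5, the other member that rose. They are RefSeq sequences on GRCm38.p6, read 5′ to 3′ on the minus strand, with GGAA or its reverse complement TTCC in capitals.
Erg, chr16:95586594-95586843: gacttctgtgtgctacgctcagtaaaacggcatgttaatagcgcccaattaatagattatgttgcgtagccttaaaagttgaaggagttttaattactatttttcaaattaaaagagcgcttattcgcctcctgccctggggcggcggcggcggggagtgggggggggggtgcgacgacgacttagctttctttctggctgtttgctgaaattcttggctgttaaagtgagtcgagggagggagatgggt
Erg, chr16:95530366-95530615: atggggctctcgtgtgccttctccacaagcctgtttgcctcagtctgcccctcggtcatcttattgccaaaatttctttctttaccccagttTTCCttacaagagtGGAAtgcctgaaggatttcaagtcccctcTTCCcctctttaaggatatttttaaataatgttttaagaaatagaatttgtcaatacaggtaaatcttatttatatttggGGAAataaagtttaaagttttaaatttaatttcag
Erg, chr16:95459349-95459598: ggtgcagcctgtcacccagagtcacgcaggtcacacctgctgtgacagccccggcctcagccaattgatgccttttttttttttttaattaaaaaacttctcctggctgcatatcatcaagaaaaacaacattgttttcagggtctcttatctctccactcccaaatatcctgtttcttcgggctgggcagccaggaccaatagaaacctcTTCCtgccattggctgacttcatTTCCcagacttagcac
Etv5, chr16:22438369-22438618: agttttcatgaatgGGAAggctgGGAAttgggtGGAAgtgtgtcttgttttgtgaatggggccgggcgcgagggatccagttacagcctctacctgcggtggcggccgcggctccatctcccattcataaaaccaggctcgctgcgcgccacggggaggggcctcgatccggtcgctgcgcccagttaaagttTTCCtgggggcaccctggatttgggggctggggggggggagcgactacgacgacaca
The first Erg window held 0 matches to the core, the second 4 and the last 2, and the Etv5 window held 4. The other window of Etv5, which is not shown, held 0. A match to GGAA on either strand is common, since 93.4% of all 32851 windows of this length held one. Motifs were searched on both strands, and a longer ETS motif, CCGGAAGT, which contains the core, occurred in 2.88% of all windows and in 0 of the 13 windows found for the members. The GATA motif AGATAA occurred in the last Erg window and in 9.99% of all windows. Windows were found for 8 of the 10 members. Counts per gene do not tell which of the starts was used.

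Total counts per line ranged from 34791011 to 66011225. EV lines 2A and 2B had counts on 36123 and 28517 genes, against 20235 to 25143 in the other lines, and EV line 2C also stood apart, since without it 1353 genes were called higher in place of 901. Levels are given as CPM, counts relative to the TMM-scaled size of each library. A gene was called when its change exceeded 1.5-fold in edgeR's quasi-likelihood test at a false discovery rate (FDR) of 0.05 over all tested genes. By this rule 5.99% of genes were called higher with BCR-ABL1 and 6.49% lower. In 12.1% of genes every BCR-ABL1 line was above every EV line, and in 13.5% below. The median log2 fold change of all tested genes was -0.02.

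With BCR-ABL1, Erg stood at 97.1, 117.5 and 105 CPM in mouse 1 and at 46.3, 61.3 and 59.35 CPM in mouse 2. With EV it was at 0.0188, 0.0144 and 0.0154 CPM in mouse 1 and at 0.092, 0.358 and 0 CPM in mouse 2. The EV and BCR-ABL1 lines were far apart, and within BCR-ABL1 every line of mouse 2 was below every line of mouse 1, as in 18.7% of all genes. In counts, 5 of 6 EV lines held 3 counts or fewer, EV line 2B held 18, and the BCR-ABL1 lines held 2406 to 5728. The ratio of the pooled levels was 1083 over all EV lines, with a 95% Poisson interval of 728 to 1690 for counting error only. Without EV line 2B, which held 18 of the 24 counts, the ratio was 3661 (1682 to 9977), and against EV line 2B alone it was 223 (141 to 377). The fitted log2 fold change was 10.02, which depends on the handling of counts near 0 and was 11.69 without EV line 2B and 12.43 without EV lines 2A and 2B.

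The lines of the mice give a comparison that did not enter the choice of Erg. Its mean in BCR-ABL1 lines was 106.5 CPM in mouse 1 and 55.7 CPM in mouse 2, a log2 difference of -0.94. This did not pass in the fit of all 12 lines (FDR 0.70, unadjusted p = 0.047), where 2.65% of all genes passed. It passed in a fit of the BCR-ABL1 lines alone, which was added after seeing the data (FDR 0.022), and without EV line 2C (FDR 0.0366), so the call depends on the lines in the fit. The mouse by condition difference is not given for Erg, because its EV levels are a few counts.

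**Figure D1:**
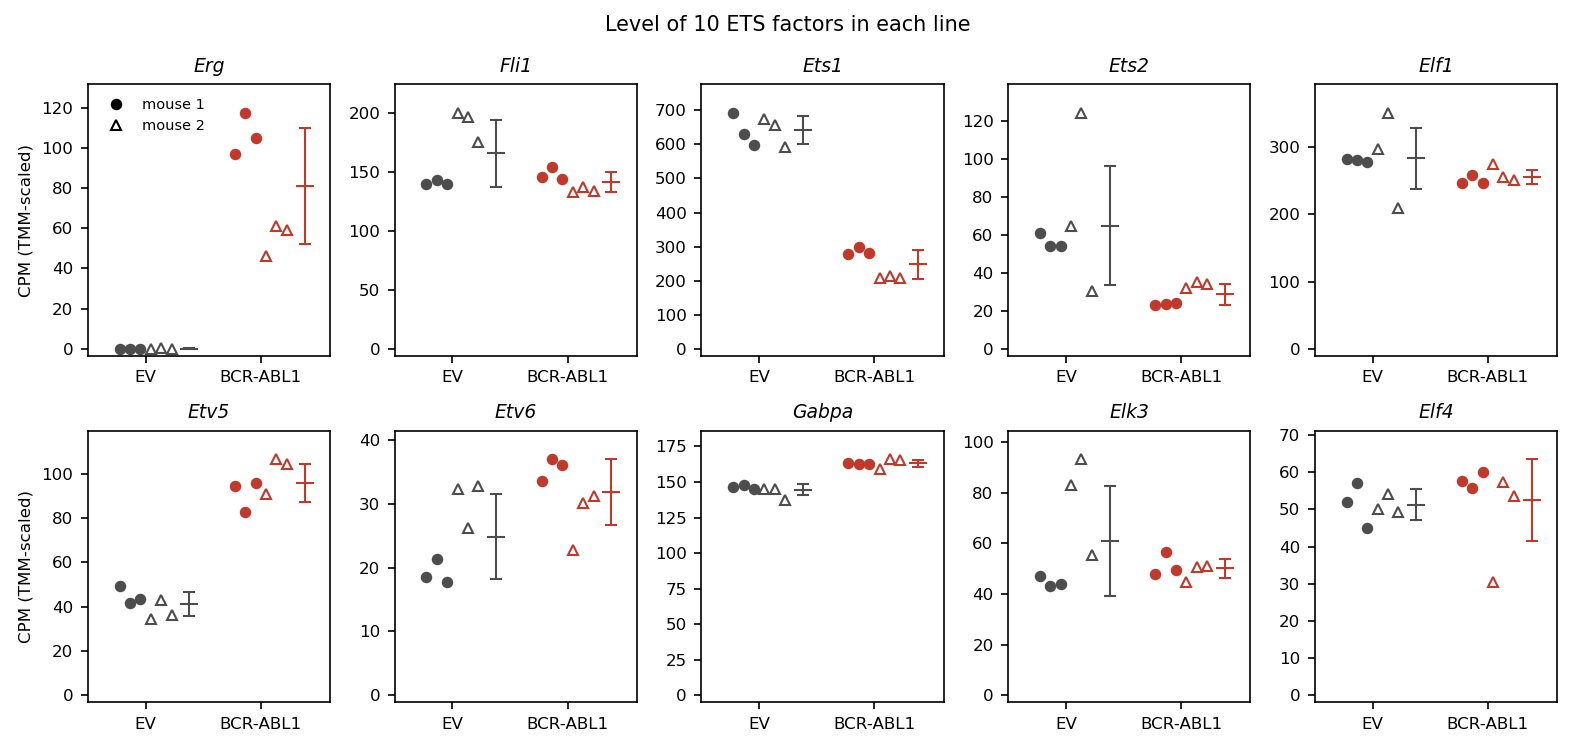
Level of each of the 10 factors in CPM (vertical axis, from 0, a scale of its own per panel) in 6 EV and 6 BCR-ABL1 lines, with filled circles for mouse 1, open triangles for mouse 2, and the mean ± SD beside the points. Erg is near 0 in EV lines and between 46.3 and 117.5 CPM in BCR-ABL1 lines, Ets1 and Etv5 separate the conditions in opposite directions, and Gabpa separates them by a small step.

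Of the other 9 members, 2 were called, Ets1 as lower and Etv5 as higher. Of all tested genes 6.49% were called lower and 5.99% higher, and the member count was not tested against these shares. The median log2 fold change of the 9 was -0.15 and 4 of 9 were positive. Ets1 and Etv5 were called under every alternative that was run, and 5 alternatives added Ets2. The test against no change also added Gabpa, and mouse 1 alone added Etv6.

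Ets1, the main ETS factor of resting lymphocytes, had the highest level of the family in EV lines and fell by 1.37 on the log2 scale (SE 0.11, taken from log2 CPM across the lines, FDR 7.06e-05). With EV it ranged from 591.8 to 692.7 CPM around a median of 643.8, and with BCR-ABL1 from 207.6 to 298.3 CPM around a median of 246.2. No BCR-ABL1 line reached the lowest EV line. The means were 641.1 ± 41.0 and 248.3 ± 42.3 CPM (SD, n = 6 each), a ratio of 2.58. EV levels were alike in the mice, with means of 640.6 and 641.6 CPM, whereas the BCR-ABL1 lines of mouse 2 lay lower than those of mouse 1, at 210.1 against 286.4 CPM. The fall was thus larger in mouse 2, with an interaction of -0.45 (FDR 0.0233). That interaction passed under 9 alternatives and did not under 8, which were the absence of a gene filter (FDR 0.439) and leaving out EV line 1B, 1C or 2A or BCR-ABL1 line 1B, 1C, 2B or 2C (FDR 0.0516 to 0.069).

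Fli1, the closest relative of Erg, lies 93.4 kb from Ets1 on chromosome 9 and did not pass the test (log2 fold change -0.23, SE 0.11, FDR 1). Its level was 139.8 to 200.5 CPM with EV (median 159.6) and 133.2 to 154.7 CPM with BCR-ABL1 (median 141.1). Every EV line of mouse 2 was above those of mouse 1, as in 16.6% of all genes, with 139.8 to 143.5 CPM in mouse 1 and 175.7 to 200.5 CPM in mouse 2. The change was 0.07 in mouse 1 and -0.50 in mouse 2, and this difference of -0.57 passed (FDR 0.00276). Without a gene filter it did not (FDR 0.144).

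Ets2, a factor phosphorylated by ERK, is the gene next to Erg, 115 kb away on chromosome 16 and on the other strand. Its log2 fold change was -1.18 (SE 0.29, FDR 0.0527), just short of the threshold. EV lines were widely spread, with 61.1, 54.2 and 54.0 CPM in mouse 1 and 64.7, 124 and 30.65 CPM in mouse 2. With BCR-ABL1 it lay between 23.2 and 24.1 CPM in mouse 1 and between 31.8 and 35.1 CPM in mouse 2. The conditions overlapped only through EV line 2C. Without that line the log2 fold change was -1.32 (FDR 0.00853), and with mouse as replicate block it was -1.19 (FDR 0.0323). DESeq2 gave an FDR of 0.271. The change had nearly the same size in the mice, -1.25 and -1.12 (interaction 0.13, FDR 0.906).

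Etv5, of the PEA3 group of ETS activators, rose by 1.21 on the log2 scale (SE 0.095, FDR 0.000123). EV lines held 34.3 to 49.3 CPM (median 42.3) and BCR-ABL1 lines 82.7 to 106.4 CPM (median 95.1). The lowest BCR-ABL1 line was above the highest EV line. The means were 41.4 ± 5.42 and 95.75 ± 8.73 CPM (SD, n = 6 each), a ratio of 2.31. The rise was 1.02 in mouse 1 and 1.41 in mouse 2, and the difference of 0.38 did not pass (FDR 0.123). It did without EV line 2B (FDR 0.0346).

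Etv6, a transcriptional repressor, had changes of opposite sign in the mice. In mouse 1 it was at 17.8 to 21.4 CPM with EV and 33.6 to 36.9 CPM with BCR-ABL1, a log2 fold change of 0.89 (FDR 0.0326). In mouse 2 it was at 26.2 to 32.8 CPM with EV and 22.7 to 31.2 CPM with BCR-ABL1, a log2 fold change of -0.12 (FDR 1). The interaction was -1.01 (FDR 0.00402) and passed under all 17 alternatives. Over all lines the log2 fold change was 0.36 (SE 0.19, FDR 1).

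Elk3, a ternary complex factor that binds DNA together with SRF, showed a similar pattern with the mice apart in EV lines. With EV it lay between 43.3 and 47.0 CPM in mouse 1 and between 55.3 and 93.2 CPM in mouse 2, whereas the BCR-ABL1 lines of both mice lay between 44.85 and 56.4 CPM. The log2 fold change was 0.20 in mouse 1 and -0.66 in mouse 2, with an interaction of -0.85 (FDR 0.0228) that did not pass without EV line 1B, 1C or 2A or BCR-ABL1 line 1B or 2A (FDR 0.056 to 0.0624). EV lines of mouse 2 and mouse 1 differed by 0.79 (FDR 0.24), and by 0.97 (FDR 0.00116) without EV line 2C.

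Gabpa, the DNA-binding subunit of GA-binding protein, which serves housekeeping and mitochondrial genes, was the steadiest member. It ranged from 137.1 to 147.9 CPM with EV and from 159.3 to 165.9 CPM with BCR-ABL1, so that every BCR-ABL1 line was above every EV line. The step was 0.18 on the log2 scale (SE 0.018), below the 1.5-fold change tested (FDR 1), and it passed a test against no change (FDR 0.00301). Elf1, a lymphoid ETS factor, was at 210.1 to 351.1 CPM with EV and 246.7 to 275.2 CPM with BCR-ABL1 (log2 fold change -0.15, SE 0.10, FDR 1). For Elf4, a relative of Elf1, the ranges were 44.95 to 57.0 and 30.5 to 60.0 CPM (log2 fold change 0.03, SE 0.16, FDR 1), and the lowest value was that of BCR-ABL1 line 2A. Both genes overlapped between the conditions.

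**Figure D2:**
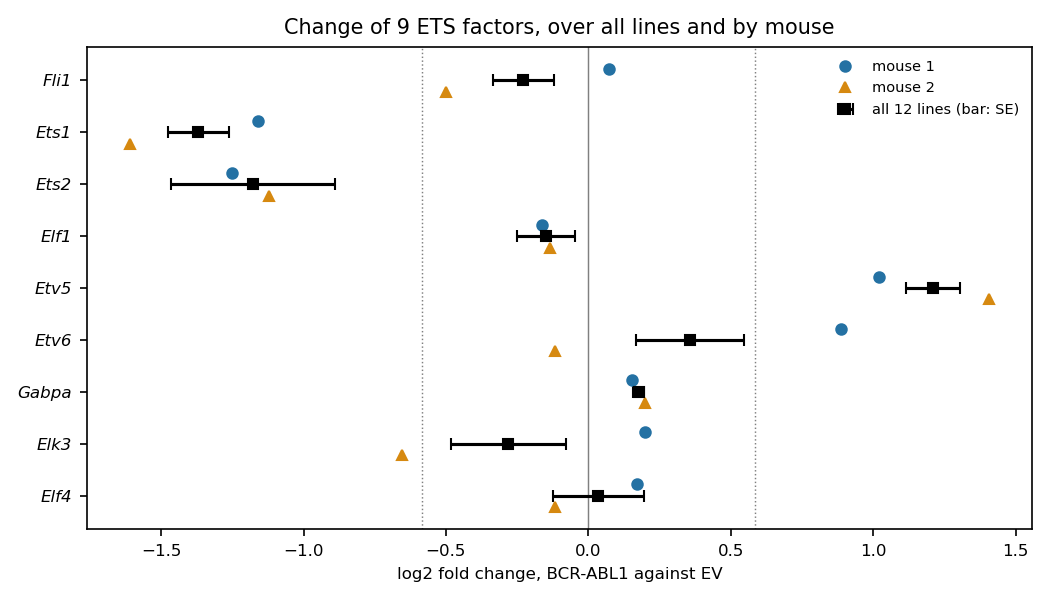
Log2 fold change of BCR-ABL1 against EV lines (horizontal axis) for the 9 factors other than Erg, over all 12 lines as squares with their SE and within each mouse as circles and triangles, with dotted lines at a 1.5-fold change. Ets1, Ets2 and Etv5 lie beyond 1.5-fold in both mice, while Fli1, Etv6, Elk3 and Elf4 have opposite signs in mouse 1 and mouse 2.

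Among the 9 members other than Erg, 4 had opposite signs in the mice. Some of these signs rest on changes near 0, such as 0.07 for Fli1 in mouse 1 and -0.12 for Etv6 in mouse 2. The test of the difference between the mice was passed by 4 (Fli1, Ets1, Etv6 and Elk3), and by 16.9% of all genes. In each of these 4 the change was more negative in mouse 2. Shares of all genes with opposite signs, or with a more negative change in mouse 2, were not counted. DESeq2 called the same 4 members. With EV, 3 of the 10 members (Fli1, Etv6 and Elk3) had every line of mouse 2 above every line of mouse 1, and 0 had them below, against 16.6% and 16.1% of all genes. With BCR-ABL1, 4 (Erg, Fli1, Ets1 and Etv6) had every line of mouse 2 below and 1 (Ets2) had them above, against 18.7% and 19.8%. Between EV lines of the mice 10.3% of all genes passed, but 0 of the 9 in edgeR, with 1 (Elk3) at an unadjusted p under 0.05 and 0 in DESeq2. Between BCR-ABL1 lines of the mice 0 of the 10 passed in edgeR, with 1 (Erg) at an unadjusted p under 0.05, and 0 in DESeq2. EV lines 2A and 2B, with counts on the most genes, are both of mouse 2, and their part in the differences between the mice was tested only by leaving out each of them.

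To set the factors side by side, levels were divided by the length of their exons. In EV lines Ets1 was first, at 75.6 ± 4.83 CPM per kb (SD, n = 6), followed by Fli1 at 47.6 ± 8.20 and Elf1 at 42.1 ± 6.70 CPM per kb. Ets1 did not overlap with Fli1, while Fli1, Elf1 and the next factor, Elk4, overlapped with their neighbors in this order. In BCR-ABL1 lines Fli1 was first, at 40.7 ± 2.36 CPM per kb, and overlapped with Elf1 at 37.95 ± 1.58 CPM per kb. Ets1 was then at 29.3 ± 4.996 CPM per kb and, as the third, overlapped with Gabpa at 28.7 ± 0.416 CPM per kb. Erg was sixth by its mean, at 23.4 ± 8.39 CPM per kb. Its range, 13.4 to 33.9 CPM per kb, overlapped with those of Ets1, Gabpa, Elk4, Etv5 and Elf2. Erg was above Etv5 in each line of mouse 1 and below it in each line of mouse 2, so its place depends on the mouse. The order depends on the length used. With the longest transcript in place of all exons, an alternative for the order added after seeing the data, Ets1 stayed first in EV lines, at 126.2 CPM per kb, and Elf1 passed Fli1. In BCR-ABL1 lines Elf1 was then first at 60.4 CPM per kb, followed by Ets1 at 48.9 and Fli1 at 42.7, and Erg was seventh at 24.96 CPM per kb, each overlapping with the next.

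The summed level of all 24 listed ETS factors was 291.4 ± 32.9 CPM per kb in EV lines and 265.4 ± 20.4 CPM per kb in BCR-ABL1 lines (SD, n = 6 each), with overlapping ranges of 260.1 to 344.5 and 234.6 to 288.7. The 10 members made up 80.5% to 82.8% of this sum in EV lines and 79.5% to 81.4% in BCR-ABL1 lines. Within it, Ets1 had a share of 26.1% ± 2.16 in EV lines and 11.0% ± 1.13 in BCR-ABL1 lines (SD, n = 6 each). Erg had 0% to 0.0299% in EV lines and 5.7% to 11.7% in BCR-ABL1 lines, with a mean of 8.64%. Etv5 had 3.50% ± 0.599 and 8.86% ± 1.21, and Fli1 16.3% ± 2.05 and 15.35% ± 0.524 (SD, n = 6 each). Shares count transcripts per length, not protein, and a share can change through the other factors of the sum.

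**Figure D3:**
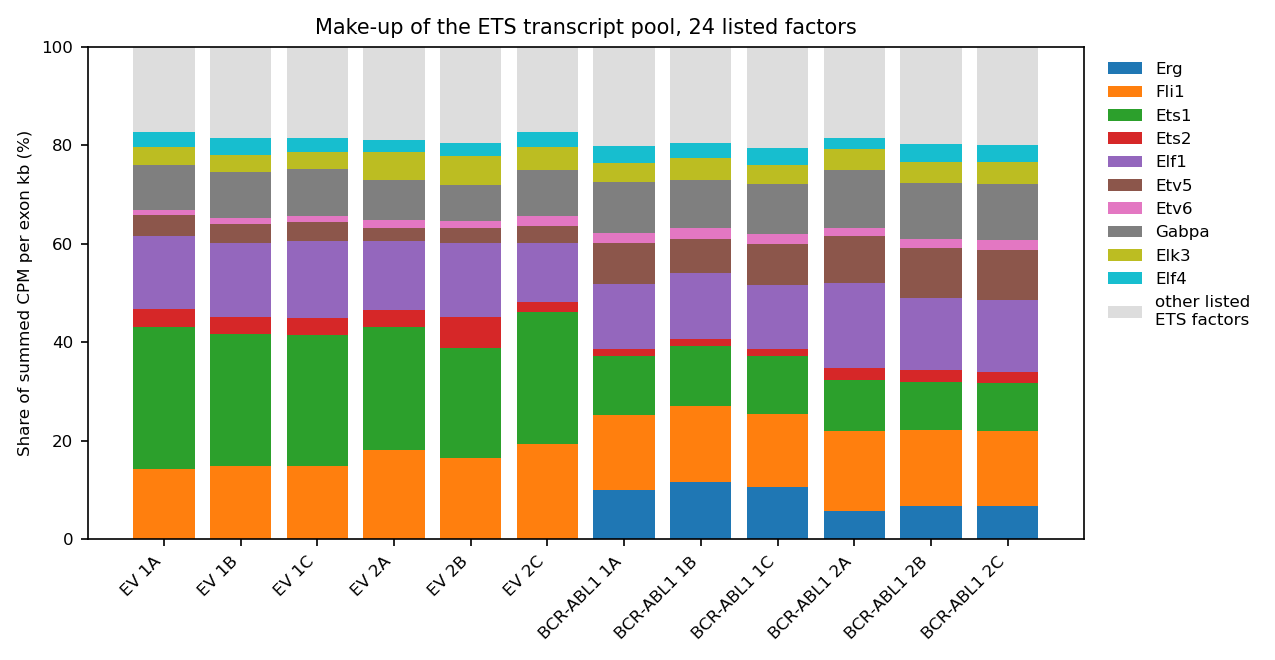
Share of each member in the summed CPM per kb of exon of 24 ETS factors (vertical axis in percent, from 0 to 100) for each of the 12 lines on the horizontal axis, with the other listed factors in light grey. In BCR-ABL1 lines Erg takes 5.7% to 11.7% and Etv5 6.98% to 10.1%. Erg is above Etv5 in every line of mouse 1 and below it in every line of mouse 2. Ets1 is at 9.74% to 12.2% in BCR-ABL1 lines, against 22.5% to 28.9% in EV lines.

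Of the 14 other listed ETS factors 7 were tested, 1 of which, Etv1, was called higher, against 5.99% of all tested genes. The median log2 fold change of the 7 was 0.42 and 5 of 7 were positive. Etv1, of the same PEA3 group as Etv5, was at 0.0144 to 0.491 CPM with EV and 1.61 to 3.97 CPM with BCR-ABL1 (log2 fold change 4.48, SE 0.57, FDR 0.000858), a low level in both. Etv4, also of that group, was at 0.358 to 3.895 and 2.95 to 8.61 CPM (log2 fold change 1.62, SE 0.57, FDR 0.100). The 3 factors with the highest level per kb, Elk4, Elf2 and Etv3, had log2 fold changes of -0.20, -0.05 and 0.19 (FDR 1 each). Elk1, a ternary complex factor like Elk3, is named here after its values were seen. With BCR-ABL1 it was at 10.1, 10.6 and 10.2 CPM in mouse 1 and at 2.25, 3.22 and 2.93 CPM in mouse 2, while all EV lines lay between 2.52 and 3.73 CPM. Its interaction was -1.65 (FDR 0.00104) and its difference between the BCR-ABL1 lines of the mice -1.88 (FDR 0.000652). The interaction passed in 3 of these 7 factors, against 16.9% of all genes. Besides Elk1 they were Etv1 (-3.04, FDR 0.027) and, with the opposite sign, Erf (1.58, FDR 0.0305). Etv1 rose by 6.69 in mouse 1 and by 3.65 in mouse 2, and its EV lines of mouse 1 held 3, 1 and 1 counts.

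Among 18 genes of proteins that bind to or act with ETS factors, 17 were tested and 0 were called by the same rule in edgeR, with 2 at an unadjusted p under 0.05 and 0 in DESeq2. That rule asks for a change beyond 1.5-fold. The test against no change called 10 of the 17, 6 higher and 4 lower, against 3389 higher and 3897 lower of all 15038 genes. Their median log2 fold change was 0.05, and 10 of 17 were positive. The partner genes with the highest level per kb were Cbfb, the partner of RUNX proteins, at 315.2 to 353.8 CPM with EV and 370.6 to 436.3 CPM with BCR-ABL1 (log2 fold change 0.20), Lyl1 (0.40) and Ldb1 (0.24), each with an FDR of 1 in the 1.5-fold test. In the test against no change Cbfb, Lyl1 and Ldb1 passed (FDR 0.0108, 0.0166 and 0.00305). Tal1 and Lmo2, which work beside ERG in blood stem cells, are named after their values were seen. Tal1 was at 0.0565 to 0.433 and 0.304 to 1.23 CPM (log2 fold change 1.98, FDR 0.0743) and Lmo2 at 0.307 to 3.04 and 2.102 to 3.741 CPM (log2 fold change 1.74, FDR 0.104), both low, and Lmo2 was called when EV line 2B, its highest EV line, was left out. Without EV line 2C it was Tal1 that was called. Both were called in edgeR's likelihood ratio fit and in mouse 1 alone. The log2 fold change of Tal1 was 3.50 in mouse 1 (FDR 0.000956) and 0.30 in mouse 2, with an interaction of -3.19 (FDR 0.0151). For Lmo2 the changes were 2.74 and 1.05, and the interaction did not pass (FDR 0.275). Gata2 had too few counts to be tested, and did not exceed 0.368 CPM in any line. SRF, the partner of Elk3, had a gene level of 44.4 to 53.6 CPM with EV and 47.9 to 53.1 CPM with BCR-ABL1 (log2 fold change 0.07, FDR 1).

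Genes known to be induced by ERK signaling, the route that acts on Etv5, were listed as 9, of which 8 were tested. Of these, 2 were called, both higher, against 5.99% of all tested genes called higher. The median log2 fold change of the 8 was 0.96, and 7 of 8 were positive. Etv4 is counted both here and among the other ETS factors. The list was chosen with earlier results of these data known. Whether ERK acted on Etv5 in these lines was not tested. Epha2, a receptor tyrosine kinase, was at 0.0154 to 0.596 CPM with EV and 28.5 to 52.9 CPM with BCR-ABL1 (log2 fold change 7.76, SE 0.62, FDR 1.79e-05). Ccnd1, cyclin D1, was at 0.0289 to 0.46 and 0.848 to 3.72 CPM (log2 fold change 4.43, SE 0.54, FDR 0.00056). Dusp6, the ERK phosphatase and the highest of the list per kb, was at 80.6 to 125.2 CPM with EV and 161.8 to 229.7 CPM with BCR-ABL1. The groups did not overlap and the log2 fold change was 0.82 (SE 0.13), but the FDR was 0.0719, and Dusp6 was called without EV line 1A, without EV line 2B and in the test against no change. Spry2, a feedback inhibitor of the pathway, had a log2 fold change of -0.14 (FDR 1). Without EV line 2C the list had 4 calls, with Etv4 and Dusp4 added, and with a minimum of 1 CPM in 6 lines it had 1.

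**Figure D4:**
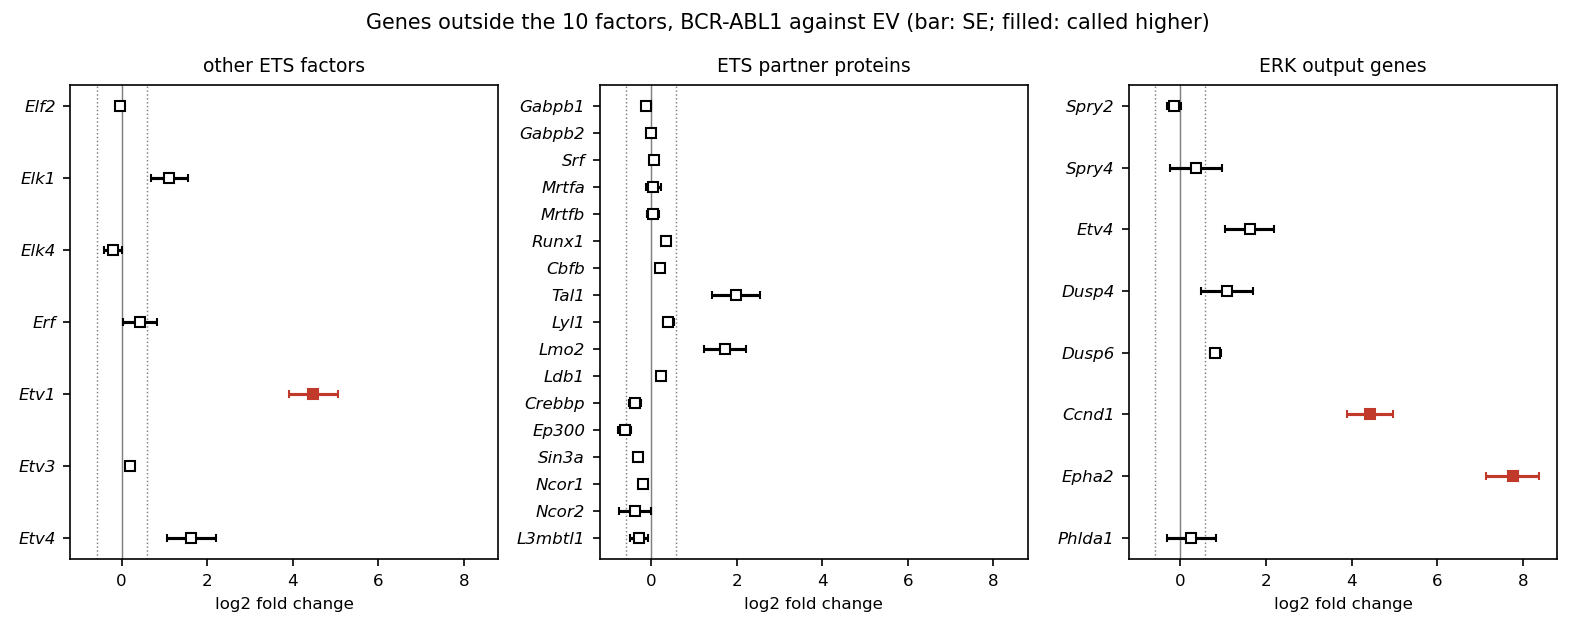
Log2 fold change of BCR-ABL1 against EV lines with its SE (horizontal axis, 1 scale for all panels) for the tested genes of the other ETS factors, the ETS partner proteins and the ERK output genes, filled where called higher, with dotted lines at a 1.5-fold change. Etv1, Ccnd1 and Epha2 are filled, and most partner genes lie within the dotted lines.

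Because Erg is also a gene of stem cells, megakaryocytes and endothelium, markers of other cells were read beside it. All 10 B lineage markers were detected in every line, with summed levels of 2529 to 4640 CPM with EV and 2755 to 3512 CPM with BCR-ABL1, and 0 were called over all lines in edgeR, with 0 at an unadjusted p under 0.05 and 0 in DESeq2. The test against no change called 1 of them, Ebf1, as lower (log2 fold change -0.28, FDR 0.0426). The mice differed in Vpreb1 and Igll1, which encode the surrogate light chain. In mouse 1 their log2 fold changes were 1.503 (FDR 0.000628) and 1.18 (FDR 0.026), and in mouse 2 -0.46 and -0.54 (FDR 1 and 0.842), with interactions of -1.96 (FDR 0.000412) and -1.72 (FDR 0.00577). Their EV lines were higher in mouse 2 by 1.51 (FDR 0.00115) and 1.40 (FDR 0.0126). Of 7 stem and progenitor markers, Flt3 was the one tested and rose from at most 0.705 CPM to between 4.61 and 7.00 CPM (FDR 2.86e-05), while Kit, Cd34, Mecom, Hlf, Procr and Meis1 held 3 counts or fewer in every BCR-ABL1 line. The 6 megakaryocyte markers summed to 1.95 to 4.29 CPM with EV and 0.863 to 1.76 CPM with BCR-ABL1, mainly Itga2b, which was called lower (log2 fold change -0.99, FDR 0.047). The endothelial list summed to 32.7 to 172 CPM and 82.1 to 102.4 CPM, nearly all from Pecam1, which B lineage cells also express, and Cdh5, Kdr, Tie1, Tek and Emcn did not exceed 0.0963 CPM in any BCR-ABL1 line. Summed levels of the myeloid, mast and basophil, T and NK, erythroid and stromal lists were between 0 and 3.76 CPM in every line. Of their genes, Cd3d was called, from 0.234 to 0.644 CPM with EV to 0.0304 to 0.116 CPM with BCR-ABL1 (log2 fold change -2.67, FDR 0.000511). Klrb1c, at up to 3.68 CPM in BCR-ABL1 line 1B, was not called over all lines (log2 fold change 1.45, FDR 0.497). It changed by 4.99 in mouse 1 (FDR 7.44e-05) and by -0.95 in mouse 2 (FDR 0.445), with an interaction of -5.94 (FDR 0.000288). In EV lines, line 2A had the highest sum in each of these lists other than B lineage and endothelial.

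Genes within 500 kb of Erg other than members number 11, of which 2 were tested. By the rule above 0 were called in edgeR, with 1 at an unadjusted p under 0.05 and 0 in DESeq2, while edgeR's likelihood ratio fit called 1 and the test against no change called both. Psmg1, a proteasome assembly chaperone, was at 13.3 to 34.1 CPM with EV and 28.9 to 34.8 CPM with BCR-ABL1 (log2 fold change 0.64, FDR 0.579). Brwd1, which shapes chromatin in late pre-B cells, was at 0.0289 to 1.17 and 1.00 to 2.07 CPM (log2 fold change 2.41, FDR 0.0742). Its change was 5.47 in mouse 1 (FDR 8.09e-05) and 1.02 in mouse 2 (FDR 0.405), with an interaction of -4.45 (FDR 0.00343), and its EV lines were at 0.0289 to 0.0753 CPM in mouse 1 and 0.18 to 1.17 CPM in mouse 2. Within 500 kb of Ets1 or Fli1 lie 27 further genes, of which 8 were tested and 1 was called higher, against 5.99% of all tested genes. This was Gm27201, which runs antisense inside Fli1, at 0.0289 to 0.234 CPM with EV and 0.411 to 0.731 CPM with BCR-ABL1 (log2 fold change 2.27, SE 0.39, FDR 0.00897). The change of Gm27201 was 3.89 in mouse 1 (FDR 1.6e-05) and 1.21 in mouse 2 (FDR 0.0701), with an interaction of -2.68 (FDR 0.00319). Its EV lines held 4, 2 and 2 counts in mouse 1, and were higher in mouse 2 by 2.14 (FDR 0.00948). The strand setting of the counting is not given in the sources used here, so reads of Gm27201 and of Fli1 may not be separable, and the same holds for the sense genes annotated inside Fli1. Gm37758 with BCR-ABL1 was at 2.82 to 3.54 CPM in mouse 1 and at 0.137 to 0.385 CPM in mouse 2, a log2 difference of -3.79 (FDR 0.000758).

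Over the 12 lines, the 5 genes whose log2 CPM was most like that of Erg were Tnf, Prnp, Lrrc32, Gng4 and Stat4, with Pearson's r between 0.994 and 0.996 among 15037 genes. The lines form the 2 conditions, so this r mostly states that these genes also separate them. Among members r with Erg was 0.95 for Etv5 and Gabpa and -0.93 for Ets1. After removal of the condition means, the 5 most similar genes were Acss1, Dlg2, Gm45201, Rabgap1l and Cmah (r 0.976 to 0.983). All 5 had their highest EV level in EV line 2B, the line with most Erg counts among EV lines, and without that line their r was 0.941 to 0.961 and they ranked 23 to 56.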

How the data were processed

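RNA of 12 lines was sequenced from stranded total RNA libraries, and the authors deposited whole-number counts for 51826 genes, neither normalized nor pooled. The submitters' processing notes name FastQC 0.11.5, Trimmomatic 0.36, TopHat2 2.1.1, Bowtie2 2.3.2, featureCounts 1.5.3, R 3.6.1, edgeR 3.18.1 and GRCm38, without roles. Symbols and positions are from GENCODE M21, which gave a symbol for 51633 of these genes. Promoter windows are from RefSeq.

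Counts were analysed in R 4.3.3 with edgeR 4.0.16 (filterByExpr, TMM, glmTreat against 1.5-fold on the quasi-likelihood fit, Benjamini-Hochberg, 0.05). The difference between the mice was tested as the interaction with glmQLFTest, and mouse contrasts came from a fit with 1 mean per mouse and condition. DESeq2 1.42.0 was an alternative. The SE is that of the difference of mean log2 CPM (prior count 2). Figures used matplotlib 3.10.9. Fits were tested on simulated data. Depth was 34791011 to 66011225 counts per line, and intervals cover counting error only.

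Members and lists were chosen with earlier results of these data known. Named genes are the members, tested genes of the lists (values for called genes and the 3 highest per kb), tested genes beside members and the genes most like Erg.

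By their labels, lines of either condition that share a number come from 1 mouse. Deviations from condition means correlated at 0.0853 to 0.240 within a mouse and at -0.203 to -0.0636 between mice. Within a mouse, after removal of the mouse means, lines with the same letter correlated at -0.109 to 0.0856. Lines with different letters were not set beside these, so whether the letter pairs lines was not settled. Alternatives were other scaling, filters and tests, replicate blocks, each mouse alone and leaving out each line.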

Additional observations from a re-analysis of the deposited data

Results flagged for a closer look

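Among 20 groups of 6 lines (10 members in each condition), a single line stood apart by Dixon's criterion in 4. In EV lines these were Erg in line 2B (0.358 CPM, gap 0.743 of the range), Ets2 in line 2B (124 CPM, gap 0.636) and Gabpa in line 2C (137.1 CPM, gap 0.731). In BCR-ABL1 lines it was Elf4 in line 2A (30.5 CPM, gap 0.78). The share of all genes with such a line was not counted, so the 4 groups cannot be set against a background. A gap is relative to its range, which for Gabpa in EV lines was narrow, 137.1 to 147.9 CPM.

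The BCR-ABL1 effect differed between the mice by the interaction test in edgeR for Fli1 (-0.572, FDR 0.00276), Ets1 (-0.449, FDR 0.0233), Etv6 (-1.01, FDR 0.00402) and Elk3 (-0.853, FDR 0.0228), each as mouse 2 minus mouse 1 on the log2 scale. The change had the same sign in both mice for Ets1 and had opposite signs for the other 3. Fli1, Etv6 and Elk3 had all EV lines of mouse 2 above all EV lines of mouse 1, as did 16.6% of all genes, and Fli1, Ets1 and Etv6 had all BCR-ABL1 lines of mouse 2 below those of mouse 1, as did 18.7%.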

How the results depend on the processing

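Ets1 and Etv5 were called under every alternative (highest FDR 0.00179 and 0.00584). Calls over all genes moved by over 1.5 times as follows. The test against no change gave 3389 higher and 3897 lower, mouse 1 alone 2512 and 1877, mouse 2 alone 408 lower, and EV lines 2A and 2B left out (added after seeing the data) 1438 higher. Leaving out single lines gave 807 to 1353 higher and 802 to 1434 lower, with the highest without EV line 2C. The difference between the mice was called for 1892 to 5522 genes across single lines left out, the EV contrast for 1210 to 2591 and the BCR-ABL1 contrast for 237 to 814. The EV contrast gave 2564 genes without a gene filter and 921 with EV lines alone, and the BCR-ABL1 contrast 954, 1101 with its lines alone and 226 with a minimum of 1 CPM in 6 lines. With the lines paired by mouse (replicate block), calls were 1126 higher and 1080 lower, Ets2 was added (FDR 0.0323) and no other member changed its call. Signs turned for Fli1 (0.0819) and Elk3 (0.21) in mouse 1 alone, for Etv6 (-0.11) and Elf4 (-0.10) in mouse 2 alone, for Elk3 without EV lines 2A and 2B (0.0694) and for Elf4 without EV line 1C, none of them called. Leave-one-out values of the interaction ran from -0.24 to 0.75 for Ets2 and from -0.15 to 0.20 for Elf1, and log2 fold changes of Elf4 from -0.00194 to 0.14. Ets2 was called under 5 alternatives (the likelihood ratio fit, no change, mouse block, mouse 1 alone, without EV line 2C), with FDRs from 2.18e-06 to 0.42 over all. The causes were not tested. With exon length replaced by the longest transcript, the share of Ets1 was 31.3% in EV and 14.1% in BCR-ABL1 lines. At 32.6 to 69.3 counts per CPM, levels under about 0.1 CPM rest on a few counts.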
